A study of Mus musculus with 2 samples.

Results

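Receptors for the constant part of immunoglobulin G (IgG) were examined in the Cd45+ immune cells of a mouse melanoma. The 6 members were taken by gene symbol from the 31253 genes listed in the count files. Fcgr1, Fcgr3 and Fcgr4 encode the IgG-binding chains of the activating receptors, and Fcgr2b encodes the inhibitory receptor. Fcer1g encodes the signaling chain that the activating receptors share, and Fcgrt encodes the heavy chain of the neonatal receptor. All 6 had unique molecular identifiers (UMIs, 1 per captured transcript molecule) in both libraries.

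Activating Fc gamma receptors bind IgG on opsonized cells or in immune complexes, and the tyrosine-based activation motif (ITAM) of the Fcer1g chain then passes the signal to Src family kinases and Syk. Fcgr2b carries an inhibitory motif (ITIM) that recruits the phosphatase Inpp5d, so the balance of both kinds of receptor on a macrophage sets its threshold for phagocytosis and cytokine release when antibody coats a tumor cell. The neonatal receptor works inside endosomes with B2m as its light chain and returns IgG and albumin to the cell surface.

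The cells were taken 10 days after B16-F10 cells, an established mouse melanoma line, had been injected under the skin of Irg1+/+ or Irg1-/- mice. The labels give the hosts as C57BL/6, and the Irg1-/- line had been backcrossed to C57BL/6J. Irg1, listed as Acod1, encodes the enzyme that makes itaconate in activated myeloid cells; in this line no Cre driver limits the deletion to a cell type, and the animals were described as females 8 to 10 weeks old. Pieces of the tumors of 3 mice of a genotype were pooled before 6000 Cd45+ cells per sample were sorted and captured with BD Rhapsody, so every genotype stands on a single pool. This design allows no test between genotypes, a difference between the libraries cannot be told apart from other differences between the pools, and all intervals cover counting error only (95%; exact Poisson for sums, Clopper-Pearson for shares).

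The Irg1+/+ file holds 6408 barcodes with 43617546 UMIs and the file labelled Irg1-/- holds 5896 barcodes with 36432067 UMIs. After cells with at least 10% of UMIs from mitochondrial (mt-) genes had been removed, 6284 and 5794 cells remained, at medians of 4528 and 4594.5 UMIs per cell. The libraries share 36 barcodes, all of them among the kept cells, and none of the log2 ratios of the members moved beyond its interval when those cells were left out. Acod1 itself was not lower over all kept cells of the library labelled Irg1-/-: it had 87.8 CPM (counts scaled to the UMIs of the same cells without mt- genes; 85.0 to 90.7) in the Irg1+/+ library and 108 CPM (104 to 111) in the other, a log2 ratio of 0.30 (0.23 to 0.36). The ratio differed between the classes defined below: it was 0.99 (0.84 to 1.15) in C1q macrophage-like cells and 0.03 (-0.16 to 0.22) in hypoxic macrophage-like cells, while the neutrophil-like class stood at -0.51 (-0.69 to -0.31), the eosinophil-like class at -0.72 (-1.18 to -0.25) and the plasma cell-like class at -1.38 (-1.97 to -0.82). Which part of the gene the allele lacks is not given in the sources used here, and a count that pools all exons cannot show a lost one, so Acod1 UMIs do not check the label. Directions below therefore belong to the library labelled Irg1-/-. The marker of the sort, Ptprc (Cd45), had UMIs in 88.0% of the Irg1+/+ cells and 91.5% of the others.

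Cells were put into classes by fixed marker genes, none of which is an Fc receptor gene, and the classes are called "like" after those markers. The 14 classes with at least 50 cells in each library were T cell-like (1193 and 676 cells), natural killer (NK) cell-like (391 and 699), B cell-like (93 and 89), plasma cell-like (96 and 105), plasmacytoid dendritic cell-like (106 and 101), type 1 conventional dendritic cell-like (323 and 204), type 2 conventional dendritic cell-like (240 and 383), mature migratory dendritic cell-like (410 and 346), neutrophil-like (74 and 223), eosinophil-like (97 and 155), classical monocyte-like (433 and 651), nonclassical monocyte-like (192 and 183), hypoxic macrophage-like (601 and 235) and C1q macrophage-like (586 and 584). In every class 2 to 6 of its own markers stood among its 10 genes of largest fold over other cells, and no marker of another class did. Cells near a gate made up 2.25% to 14.2% of a class and library. No class was given to 1256 Irg1+/+ cells and 1066 others. Melanocyte or B16-F10-like cells (157 and 33) and mast cell and basophil-like cells (36 and 61) were too few to compare. Sparse classes are weak: the neutrophil-like cells had medians of 1678 and 1856 UMIs and the eosinophil-like cells 805 and 1034, against 9826.5 and 9790.5 in the C1q macrophage-like cells.

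The genes of the IgG-binding chains lie together on chromosome 1, apart from Fcgr1. In GRCm38, Fcgr2b is at chr1:170958617-170976547 (minus strand), Fcgr4 at chr1:171018920-171029761 (plus strand), Fcgr3 at chr1:171051174-171064935 (minus strand) and Fcer1g at chr1:171229572-171234365 (minus strand), so that 4 members lie within 275749 bases. Fcgr1 is at chr3:96282909-96293969 and Fcgrt at chr7:45092990-45103851, both on the minus strand. An antisense gene overlaps Fcgr2b and another overlaps Fcgrt, and their reads cannot be told apart unless counting used strand, which is not given in the sources used here. None of the 50-base words in the last 400 bases of any member's transcripts was found in another gene, so UMIs read near the 3′ end are not shared between these related receptors.

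Fcgr1 and Fcgr4 are textbook interferon-responsive genes, and both are described below against Cxcl9 and Cxcl10, so their promoters are shown here. The sequences run 5′ to 3′ on the gene's strand from 250 bases before to 50 bases after the start (RefSeq, GRCm38.p6), at chr3:96293920-96294219 (minus strand) and chr1:171018676-171018975 (plus strand). Capitals mark matches to 3 motifs searched on both strands: the gamma-activated site TTCNNNGAA, the interferon response element type, which is GAAA, any 2 bases and GAAA again, and the PU.1 core GAGGAA, which reads TTCCTC on the other strand.
Fcgr1: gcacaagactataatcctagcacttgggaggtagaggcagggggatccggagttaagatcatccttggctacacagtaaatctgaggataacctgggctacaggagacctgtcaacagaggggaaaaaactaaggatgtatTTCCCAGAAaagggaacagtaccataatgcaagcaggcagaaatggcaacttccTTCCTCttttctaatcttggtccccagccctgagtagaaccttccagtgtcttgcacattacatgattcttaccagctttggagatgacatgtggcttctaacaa
Fcgr4: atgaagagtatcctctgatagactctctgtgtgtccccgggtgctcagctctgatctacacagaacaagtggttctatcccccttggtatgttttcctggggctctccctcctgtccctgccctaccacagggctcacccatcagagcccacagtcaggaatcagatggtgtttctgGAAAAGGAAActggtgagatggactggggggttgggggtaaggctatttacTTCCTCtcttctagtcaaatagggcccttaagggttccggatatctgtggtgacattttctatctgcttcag
Fcgr1 held a gamma-activated site match from -109 to -101 and a PU.1 core from -55 to -50, counted from the start of the gene. Fcgr4 held an interferon response element type match from -73 to -64 and a PU.1 core from -22 to -17. Fcgr3 had only the PU.1 core, and the windows of Fcgr2b, Fcer1g and Fcgrt had none of these letters. Among 32851 RefSeq promoter windows of this length, 8.30% held TTCNNNGAA, 3.44% held the interferon response element type and 28.3% held GAGGAA. A match is a string of letters and not a measured binding site.

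Monocytes and macrophages held much of the receptor UMIs. Classical and nonclassical monocyte-like and hypoxic and C1q macrophage-like cells were 28.8% of the Irg1+/+ cells and 28.5% of the others, and held 35.9% and 34.6% of all UMIs. They held 60.8% and 59.7% of Fcgr1 UMIs, 60.8% and 55.1% of Fcgr2b, 63.6% and 59.7% of Fcgr3, 63.0% and 62.5% of Fcgr4, 54.7% and 50.2% of Fcer1g and 42.0% and 35.8% of Fcgrt, the last close to their share of all UMIs in the library labelled Irg1-/-. Values are given in this order, Irg1+/+ and then labelled Irg1-/-, throughout. UMIs are counted near the 3′ end and without a scale per length, so levels are compared between classes and libraries and not between genes.

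Fcgr1, the high-affinity receptor, was highest in classical monocyte-like cells at 387 CPM (362 to 413) and 502 CPM (479 to 525). C1q macrophage-like cells followed at 324 CPM (311 to 337) and 425 CPM (409 to 441), and hypoxic macrophage-like cells at 319 CPM (303 to 335) and 309 CPM (282 to 337). The classical monocyte-like value was above the C1q macrophage-like value within each library, with intervals apart, although the Irg1+/+ classical monocyte-like value lay below the C1q macrophage-like value of the other library. Nonclassical monocyte-like cells stood at 159 and 219 CPM, below all 3 of those classes in both libraries. T cell-like cells had 45.0 and 52.9 CPM.

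Fcgr2b, the inhibitory receptor, had its highest level in hypoxic macrophage-like cells, the class marked by Vegfa and Spp1 among others, at 1402 CPM (1368 to 1436) and 1482 CPM (1422 to 1543). Both values lay above both values of the C1q macrophage-like class, 1177 CPM (1152 to 1202) and 1129 CPM (1103 to 1156). Classical monocyte-like cells had 1048 and 962 CPM and nonclassical monocyte-like cells 853 and 902 CPM. Among lymphoid classes the B cell-like cells, in which Fcgr2b is the known Fc gamma receptor, had 388 CPM (316 to 472) and 544 CPM (453 to 647), which is 2.14 and 3.30 times the T cell-like level of 182 and 165 CPM.

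Fcgr3 was at similar levels in 5 myeloid classes. Neutrophil-like cells had 860 CPM (729 to 1008) and 843 CPM (768 to 923), C1q macrophage-like cells 836 and 788 CPM, hypoxic macrophage-like cells 734 and 855 CPM, classical monocyte-like cells 779 and 803 CPM, and nonclassical monocyte-like cells 710 and 853 CPM. The neutrophil-like value was the highest in the Irg1+/+ library and lay below the hypoxic macrophage-like and nonclassical monocyte-like values in the other, with overlapping intervals. Eosinophil-like cells had 486 and 430 CPM, and type 2 conventional dendritic cell-like cells 243 and 230 CPM, below those 5 classes. In NK cells Fcgr3 is the receptor of antibody-dependent killing, and NK cell-like cells had 169 CPM (148 to 192) and 176 CPM (159 to 193), 1.80 and 1.97 times the T cell-like level.

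Fcgr4, which binds IgG2 subclasses, was highest in macrophages with complement genes and in patrolling monocytes. C1q macrophage-like cells had 534 CPM (517 to 551) and 756 CPM (734 to 778), and nonclassical monocyte-like cells 504 CPM (456 to 555) and 559 CPM (512 to 610). Between the libraries the C1q macrophage-like intervals lay apart and the nonclassical monocyte-like intervals overlapped. The nonclassical monocyte-like interval of the library labelled Irg1-/- also overlapped the Irg1+/+ C1q macrophage-like interval. Both classes lay above the neutrophil-like cells (323 and 349 CPM), the classical monocyte-like cells (250 and 356 CPM) and the hypoxic macrophage-like cells (186 and 280 CPM). With every cell thinned to 2000 UMIs, 51.7% and 62.7% of C1q macrophage-like cells had an Fcgr4 UMI, against 27.2% and 32.8% of hypoxic macrophage-like cells and 9.36% and 14.0% of T cell-like cells; unthinned shares were 80.9% and 87.3%, 55.2% and 57.4%, and 26.2% and 35.4%.

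Fcer1g, the shared signaling chain, was highest in C1q macrophage-like cells (3823 and 4524 CPM), classical monocyte-like cells (3657 and 3950 CPM) and nonclassical monocyte-like cells (3653 and 3886 CPM). NK cell-like cells, where Fcer1g also serves natural cytotoxicity receptors, had 2429 CPM (2347 to 2513) and 2834 CPM (2766 to 2903), 3.14 and 3.06 times the T cell-like level of 774 and 925 CPM. Mature migratory dendritic cell-like cells were close to the T cell-like level at 912 and 1182 CPM.

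Fcgrt followed another pattern. Type 1 conventional dendritic cell-like cells had 153 and 127 CPM and type 2 conventional dendritic cell-like cells 127 and 149 CPM. The plasmacytoid class stood at 97.2 CPM (73.4 to 126) and 202 CPM (166 to 244), the highest level of the library labelled Irg1-/-. C1q macrophage-like cells, at 103 and 96.8 CPM, lay below type 1 and type 2 cells in each library and within the interval of the plasmacytoid class in the Irg1+/+ library. Mature migratory dendritic cell-like cells had only 26.1 and 32.0 CPM. Hypoxic macrophage-like and classical monocyte-like cells, which were rich in the other receptors, had 30.1 and 27.6 CPM and 28.1 and 36.6 CPM.

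**Figure D1:**
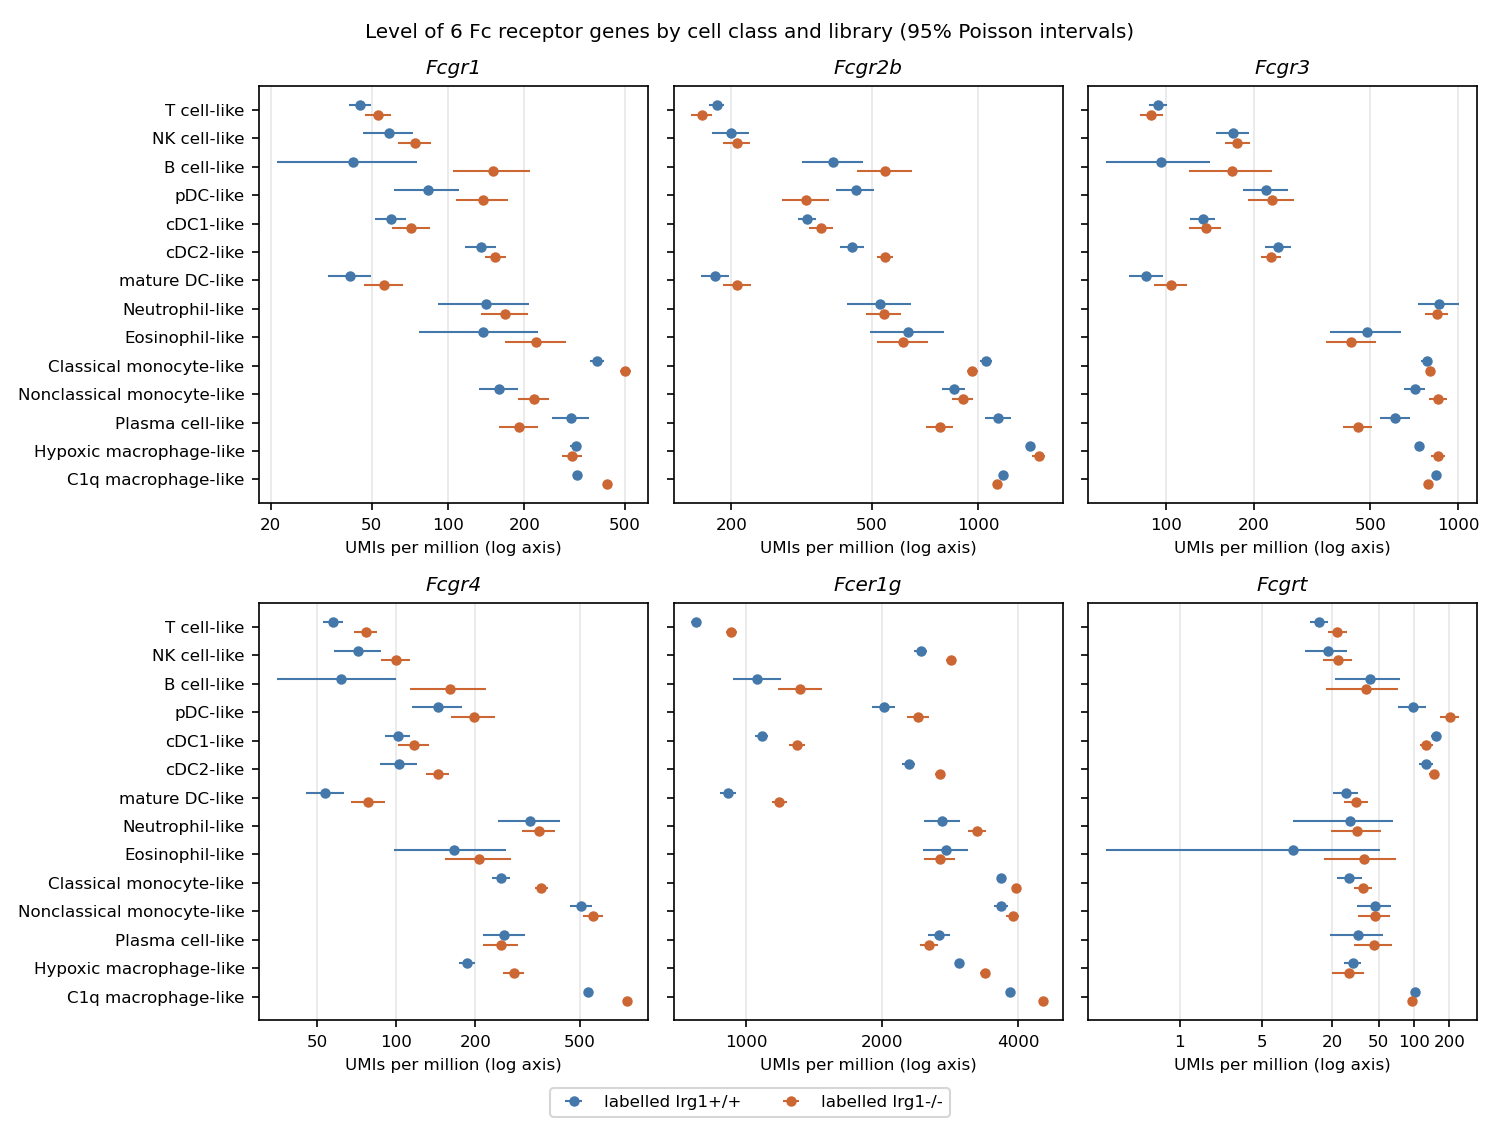
Level of each of the 6 genes in CPM (log axis) for the 14 classes in rows. Points are the Irg1+/+ library (blue) and the library labelled Irg1-/- (orange), and bars are 95% Poisson intervals. In the row names pDC, cDC1, cDC2 and mature DC stand for the plasmacytoid, type 1, type 2 and mature migratory dendritic cell classes; Fcgr2b peaks in hypoxic macrophage-like cells, Fcgr4 in C1q macrophage-like and nonclassical monocyte-like cells and Fcgrt is high in type 1, type 2 and plasmacytoid but not in mature migratory dendritic cell-like cells.

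T cells are taken to lack most of these receptors, so their level was used as a rough measure of free RNA and of cells caught together. The T cell-like cells also held the C1q macrophage markers: all 7 were detected, with a sum of 908 and 1001 CPM against 11222 and 11419 CPM in C1q macrophage-like cells, and C1qb was the most abundant at 311 and 333 CPM. Above the T cell-like level, NK cell-like cells kept 74.9 and 86.4 CPM of Fcgr3 and 17.4 and 42.3 CPM of Fcgr2b. B cell-like cells of the Irg1+/+ library kept 207 CPM of Fcgr2b and 3.21 CPM of the 3 activating chains together. In the library labelled Irg1-/- the B cell-like cells kept 379 CPM of Fcgr2b and 260 CPM of activating chains, but 1 cell held 10 of their 35 Fcgr1 UMIs and 11 of their 37 Fcgr4 UMIs. Mature migratory dendritic cell-like cells lay within 43.3 CPM of the T cell-like level for each Fc gamma receptor in both libraries. Plasma cell-like cells had 1136 and 777 CPM of Fcgr2b, a level of monocytes, together with 2771 and 2925 CPM of C1q macrophage markers and 4321 and 3648 CPM of classical monocyte markers. Summed C1q macrophage markers were above the T cell-like sum in B cell-like cells too, at 1426 and 1389 CPM. They were 1692 and 1863 CPM in neutrophil-like and 2111 and 2936 CPM in eosinophil-like cells. Mature migratory dendritic cell-like cells, at 929 and 1061 CPM, were close to the T cell-like sum. Whether the T cell-like level is the right one to take off in each class was not tested. The part that free RNA and mixed cells have in these levels was not tested either.

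The makeup of the 4 Fc gamma receptors differed between classes. The activating share is given as the UMIs of Fcgr1, Fcgr3 and Fcgr4 over those UMIs plus Fcgr2b. As counted, it was highest in neutrophil-like cells, 71.6% (66.3 to 76.4) and 71.6% (68.8 to 74.3), where Fcgr3 alone made up 46.5% and 44.4% of the UMIs. Nonclassical monocyte-like cells had 61.7% and 64.4%, C1q macrophage-like cells 59.0% (58.3 to 59.7) and 63.6% (62.9 to 64.2), and classical monocyte-like cells 57.5% (56.2 to 58.7) and 63.3% (62.3 to 64.3). Hypoxic macrophage-like cells lay below all of these at 46.9% (46.0 to 47.8) and 49.3% (47.9 to 50.8). The lowest share was that of Irg1+/+ B cell-like cells, 34.0% (26.5 to 42.1), against 46.8% (40.3 to 53.4) in the library labelled Irg1-/-. T cell-like cells, the rough measure of free RNA, had 52.0% and 57.1%. With the T cell-like level taken off each receptor, the highest share by value was that of NK cell-like cells, 85.5% and 75.5%. Neutrophil-like cells then had 76.6% and 75.3%. The NK cell-like share rests on small remainders and has no interval, so its first place is not settled. In the Irg1+/+ library 17.4 CPM of Fcgr2b remained, and the NK cell-like interval (176 to 224 CPM) overlapped the T cell-like one (173 to 191 CPM).

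Between the libraries, the share was higher in the library labelled Irg1-/- in 13 of 14 classes and lower in type 2 conventional dendritic cell-like cells, 52.2% and 49.2%. With the T cell-like level taken off each receptor, the share could be given in both libraries for 12 classes and was higher in 8 and lower in 4, the NK cell-like (85.5% and 75.5%), type 1 (40.0% and 35.3%), type 2 (52.3% and 44.9%) and neutrophil-like (76.6% and 75.3%) classes. No interval was computed for these remaining shares, and the NK cell-like ones rest on the small remainders given above. Since the classes of a library share a pool, the number of classes with a higher share is not a count of separate observations. As counted, the interval of the log2 ratio of activating to inhibitory UMIs lay above 0 in 6 classes and below 0 in none. That log2 ratio was 0.35 (0.26 to 0.45) in classical monocyte-like cells, 0.28 (0.22 to 0.34) in C1q macrophage-like cells and 0.14 (0.04 to 0.24) in hypoxic macrophage-like cells. It was also 0.29 (0.13 to 0.46) in T cell-like cells, so the class taken to lack the receptors moved by about as much as the C1q macrophage-like class. In C1q macrophage-like cells it was 0.07 (-0.08 to 0.22) with each cell thinned to 2000 UMIs and 0.10 (0.03 to 0.17) without the 5% of cells of each library with most UMIs.

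**Figure D2:**
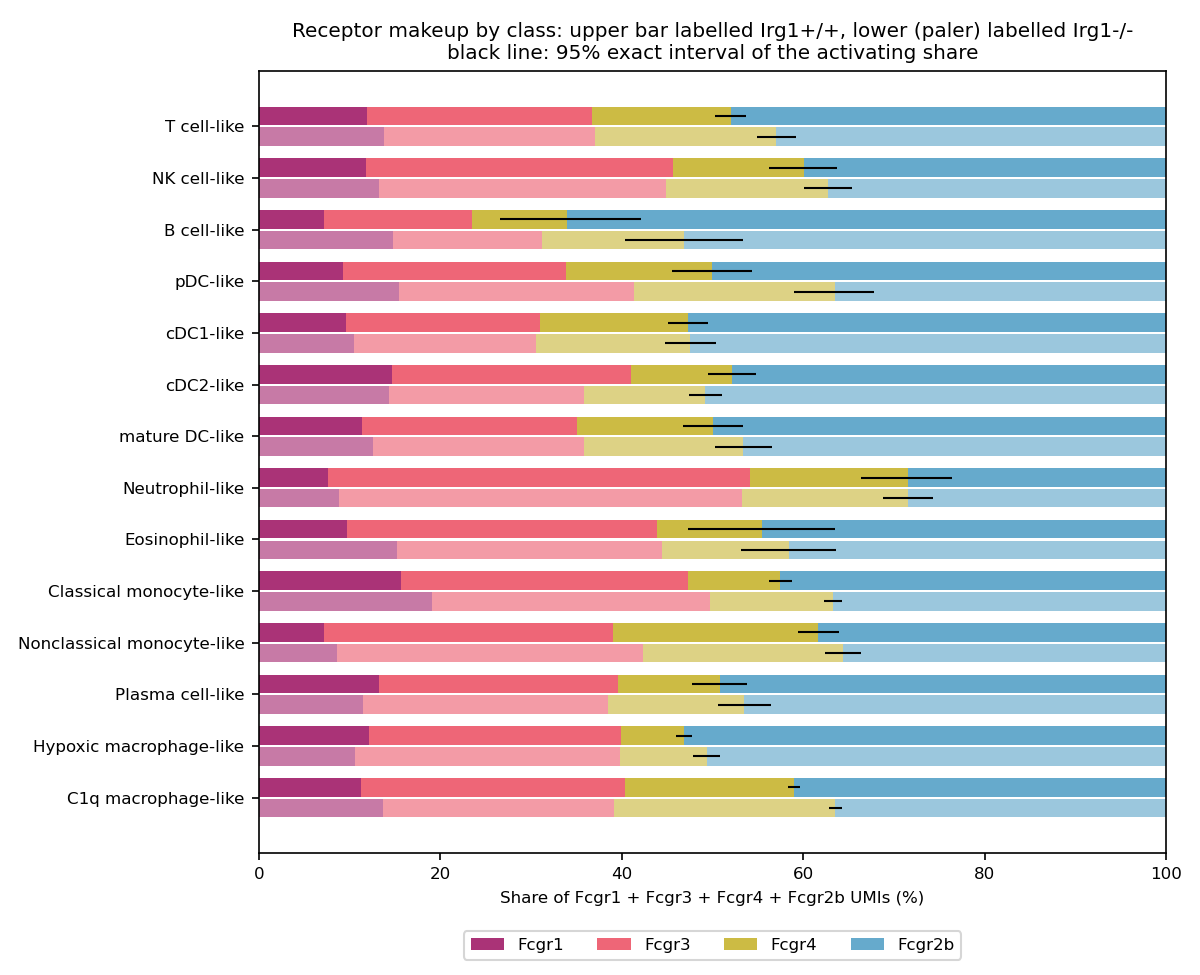
Share of the UMIs of Fcgr1, Fcgr3, Fcgr4 and Fcgr2b (percent, x axis) in each of the 14 classes, upper bar Irg1+/+ and lower, paler bar the library labelled Irg1-/-. The activating share ends where the blue Fcgr2b part begins, with its 95% interval as a black line. As counted, without the T cell-like level taken off, it was largest in neutrophil-like cells at 71.6% in both libraries.

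In the main count, Fcgr4 was higher in the library labelled Irg1-/- in more classes than any other member. Over all kept cells it had 216 CPM (211 to 220) and 312 CPM (307 to 318). The log2 ratio of the library labelled Irg1-/- over Irg1+/+ was above 0 in 13 of 14 classes, with a median of 0.46, an interval above 0 in 9 and a value of at least 0.5 in 5. The last count was 3 with mt- genes under 5%, with a wider gate margin or without the deepest 5% of cells, and 7 with TMM factors or as mean per-cell CPM. The sign was not the same under every way of counting in the NK cell-like, plasmacytoid and type 1 conventional dendritic cell-like, neutrophil-like, eosinophil-like, nonclassical monocyte-like and plasma cell-like classes. After thinning Fcgr4 was higher in 11 of 14 classes and Fcer1g in 12, and as mean per-cell CPM they were higher in 12 and 13. The first place of Fcgr4 therefore depends on the way of counting. The classes of a library come from the same pool, so counts of classes, for this and the other members, are not separate observations. How many of all genes were higher in as many classes, or had as many intervals above 0, was not counted. Fcgr4 went from 250 CPM (230 to 271) to 356 CPM (337 to 376) in classical monocyte-like cells, a log2 ratio of 0.51 (0.37 to 0.65). Hypoxic macrophage-like cells had 186 CPM (174 to 199) and 280 CPM (254 to 307), a log2 ratio of 0.59 (0.42 to 0.76). In C1q macrophage-like cells the log2 ratio was 0.50 (0.44 to 0.56), in nonclassical monocyte-like cells 0.15 (-0.04 to 0.34) and in neutrophil-like cells 0.11 (-0.32 to 0.57). T cell-like cells had 57.6 and 76.7 CPM, a log2 ratio of 0.41 (0.22 to 0.60).

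The other members had smaller differences or differences of both signs. Fcgr1 was higher in the library labelled Irg1-/- in 12 of 14 classes, with a log2 ratio of 0.37 (0.26 to 0.49) in classical monocyte-like cells, 0.39 (0.31 to 0.47) in C1q macrophage-like cells and 0.46 (0.13 to 0.79) in nonclassical monocyte-like cells. It was -0.05 (-0.20 to 0.10) in hypoxic macrophage-like cells and -0.68 (-1.04 to -0.33) in plasma cell-like cells. The Fcgr1 difference in C1q macrophage-like cells, 324 and 425 CPM as summed, was smaller under other counts. It was 378 and 447 CPM without the top 5% of cells by UMIs, and 371 and 437 CPM as mean per-cell CPM. After thinning Fcgr1 was higher in 10 of 14 classes. Fcgr2b was higher in 8 of 14 classes, with a log2 ratio of -0.06 (-0.11 to -0.01) in C1q macrophage-like, -0.12 (-0.20 to -0.05) in classical monocyte-like and 0.08 (0.01 to 0.15) in hypoxic macrophage-like cells. The C1q macrophage-like value lay just above 0 in graph clusters and with TMM factors, and the hypoxic macrophage-like value just below 0 in graph clusters, so neither has a settled sign. Its highest and lowest values were 0.48 (0.10 to 0.88) in B cell-like cells and -0.55 (-0.72 to -0.37) in plasma cell-like cells. With mt- genes under 5% the B cell-like value of Fcgr2b changed sign, so that sign is not settled either. Fcgr3 was higher in 8 of 14 classes, at -0.08 (-0.14 to -0.03) in C1q macrophage-like cells, 0.22 (0.13 to 0.31) in hypoxic macrophage-like cells and 0.26 (0.11 to 0.42) in nonclassical monocyte-like cells. Fcer1g was higher in 12 of 14 classes, with the interval above 0 in all 12 and every value under 0.5, with a value of 0.24 (0.22 to 0.27) in C1q macrophage-like cells. Fcgrt was higher in 9 of 14, from 1.05 (0.58 to 1.55) in plasmacytoid dendritic cell-like cells to -0.27 (-0.50 to -0.04) in type 1 conventional dendritic cell-like cells among classes whose interval does not hold 0. With the T cell-like level taken off, it was higher in 4 of 12 classes, so that majority did not hold.

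**Figure D3:**
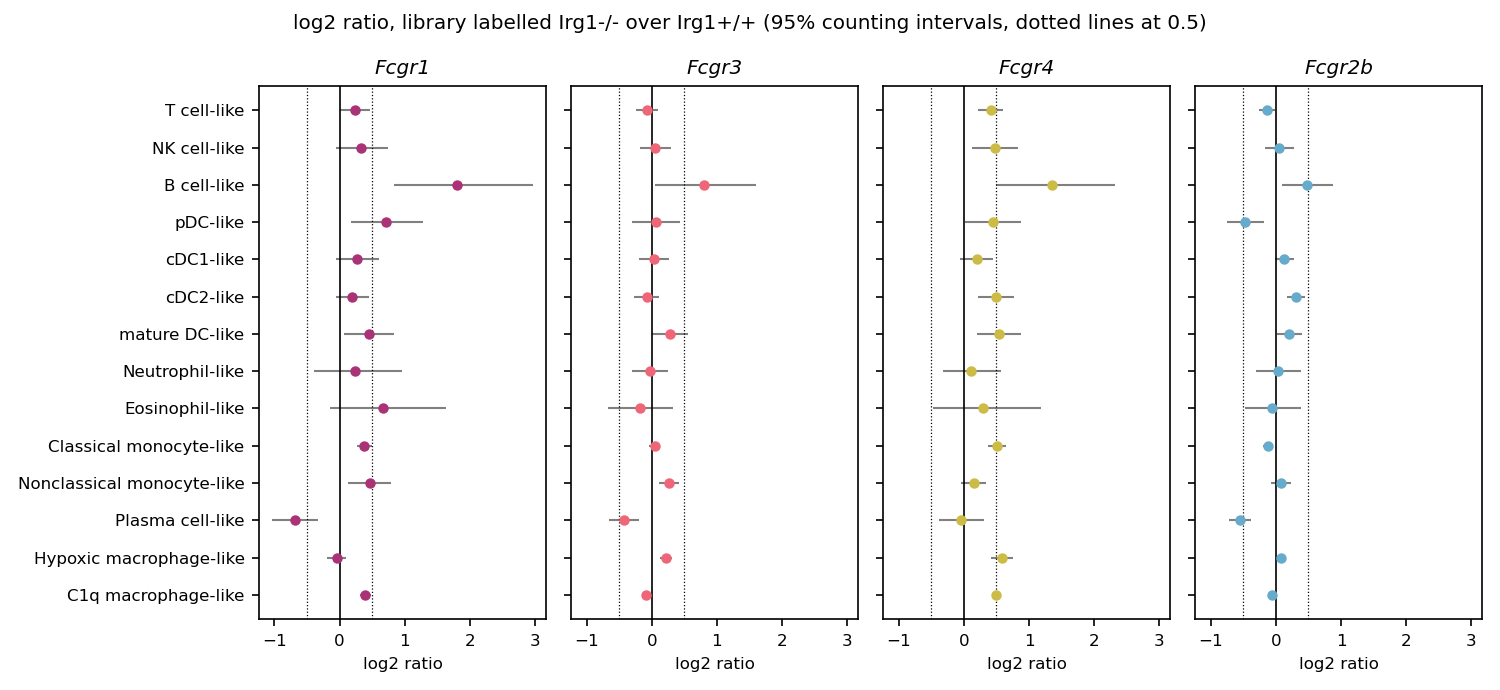
The log2 ratio of the library labelled Irg1-/- over Irg1+/+ (x axis) for Fcgr1, Fcgr3, Fcgr4 and Fcgr2b in the 14 classes, with 95% counting intervals and dotted lines at a size of 0.5. Fcgr4 lies right of 0 in 13 of 14 classes, while Fcgr2b lies on both sides.

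These differences were read against all genes that reached 20 UMIs in the class when both libraries were summed, with an absolute log2 ratio of at least 0.5 as the mark. In C1q macrophage-like cells 1 of the 6 members, Fcgr4, was past it, where 17.6% of 11049 genes were, and the members' median was 0.09 against -0.06 for all genes. In classical monocyte-like cells 1 of 6, Fcgr4, was past it beside 17.9% of 9354 genes, with medians of 0.24 and -0.04. In hypoxic macrophage-like cells 1 of 6, Fcgr4 again, was past it beside 19.1% of 9885 genes, with medians of 0.14 and -0.02. A count of 1 in 6 is near each of these backgrounds. No member of nonclassical monocyte-like (background 21.3%), neutrophil-like (36.1%), NK cell-like (17.8%), type 1 (18.7%) or type 2 (19.6%) conventional dendritic cell-like cells was past the mark. The T cell-like class had 1 (Fcgrt; background 12.6%), the mature migratory dendritic cell-like class 1 (Fcgr4; 19.0%), the eosinophil-like class 1 of 5 tested (Fcgr1; 33.5%) and the plasmacytoid dendritic cell-like class 2 (Fcgr1 and Fcgrt; 24.9%). B cell-like cells had 3 (Fcgr1, Fcgr3 and Fcgr4, background 34.0%), all higher, and plasma cell-like cells 2 (Fcgr1 and Fcgr2b, background 31.9%), both lower. With mt- genes under 5% the B cell-like values of Fcgr1 and Fcgr3 were under the mark, and that of Fcgr3 changed sign.

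In C1q macrophage-like cells the size of the Fcgr4 difference depended on which cells carried the sum. The 101 Irg1+/+ cells among the top 5% of their library by UMIs were 17.2% of the class and held 41.7% of its UMIs, 68.3% of them were in the Mrc1 high state and their Fcgr4 level was 323 CPM. The 78 such cells of the library labelled Irg1-/- were 13.4% of the class and held 30.0% of its UMIs, 35.9% were Mrc1 high and Fcgr4 was at 767 CPM. All other cells of the class had 685 and 751 CPM. The log2 ratio was 0.13 (0.06 to 0.20) without the deepest cells, 0.21 as a mean of per-cell CPM and 0.18 (0.02 to 0.34) after thinning. In classical monocyte-like cells it was 0.52, 0.51 and 0.33 (0.09 to 0.58) under these settings, and in hypoxic macrophage-like cells 0.62, 0.49 and 0.53 (0.16 to 0.88). In graph clusters these classes stood at 0.29 (0.17 to 0.40) and 0.39 (0.22 to 0.56), both under the mark of 0.5 used below.

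**Figure D4:**
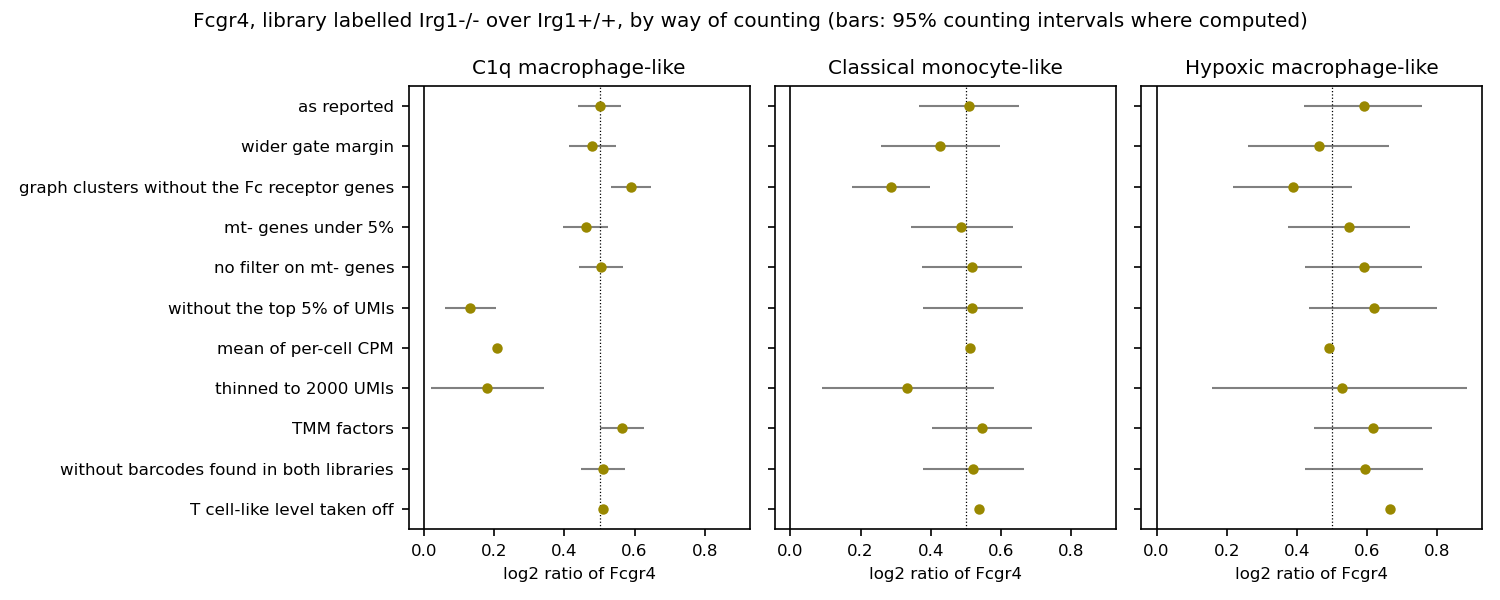
The log2 ratio of Fcgr4 (x axis; library labelled Irg1-/- over Irg1+/+) in C1q macrophage-like, classical monocyte-like and hypoxic macrophage-like cells under 11 ways of counting in rows, with 95% counting intervals where computed and a dotted line at 0.5. In C1q macrophage-like cells it ran from 0.13 without the deepest 5% of cells to 0.59 in graph clusters.

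Macrophage states held different receptor levels. Every C1q macrophage-like cell was given the state of its highest score, with no minimum score or margin. Of the resident-like cells, 15 of 81 and 17 of 131 led the next state by under 0.1. Median depths were 7977 and 9743 UMIs in the MHC class II high, 15353.5 and 10607 in the Mrc1 high and 5085 and 8948 in the resident-like state. C1q macrophage-like cells of high MHC class II (269 and 297 cells), which present antigen to T cells, had the most Fcgr4, 801 CPM (767 to 836) and 891 CPM (858 to 925), a log2 ratio of 0.15 (0.07 to 0.24). Mrc1 high cells (236 and 156) had 361 CPM (343 to 381) and 537 CPM (504 to 572), a log2 ratio of 0.57 (0.45 to 0.69). Resident-like cells, scored by genes such as Lyve1, Cd163 and Folr2 (81 and 131) had 484 CPM (435 to 537) and 742 CPM (696 to 790), a log2 ratio of 0.61 (0.44 to 0.80). After thinning to 2000 UMIs the 3 log2 ratios were -0.10 (-0.30 to 0.11), 0.45 (0.08 to 0.82) and 0.31 (-0.13 to 0.78). Fcgr4 was thus higher in the library labelled Irg1-/- within the Mrc1 high state under both counts, and the thinned interval of the other states held 0. Fcgr2b was also highest in the MHC class II high state, 1431 and 1265 CPM, against 1015 and 998 CPM in the Mrc1 high state. In the Irg1+/+ library this state, at 1431 CPM (1386 to 1477), was not below the hypoxic macrophage-like class at 1402 CPM (1368 to 1436). In the library labelled Irg1-/- it lay below that class, at 1265 against 1482 CPM.

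Cells with interferon-type transcription were picked by at least 2 UMIs of Cxcl9 and Cxcl10, chemokines that interferon gamma induces, and set against cells with 0. In classical monocyte-like cells these were 216 against 144 cells and 378 against 152 cells. Fcgr4 was higher in the Cxcl9 and Cxcl10 cells: 303 against 189 CPM in the Irg1+/+ library, a log2 ratio of 0.68 (0.40 to 0.98), and 401 against 258 CPM in the other, 0.63 (0.40 to 0.89). In that comparison 10.5% and 11.5% of genes were higher by at least 0.5. Fcgr1 was higher in the Cxcl9 and Cxcl10 cells of the Irg1+/+ library, at 0.42 (0.19 to 0.65), while the interval of the other library held 0, at 0.03 (-0.15 to 0.22). In C1q macrophage-like cells Fcgr4 went both ways, -0.27 (-0.45 to -0.07) and 0.64 (0.41 to 0.87), beside 17.8% and 18.6% of genes higher by at least 0.5. The gate also picked deep cells: the medians were 14379.5 against 1559 UMIs and 11512 against 2802 UMIs in that class.

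Every cell was also thinned to 2000 UMIs before both the chemokines and the receptors were counted, a step added after the depth gap was seen. The share of all genes that were higher was not counted after this step. Fcgr4 was then higher by value in Cxcl9 and Cxcl10 cells in all 8 pairs of class and library, with the interval above 0 in 5. It was 1.13 (0.65 to 1.63) and 0.69 (0.40 to 1.00) in classical monocyte-like, 0.84 (0.58 to 1.12) and 0.44 (0.20 to 0.69) in C1q macrophage-like, 0.68 (0.13 to 1.19) and 0.63 (-0.07 to 1.27) in hypoxic macrophage-like, and 0.42 (-0.13 to 0.94) and 0.06 (-0.46 to 0.57) in nonclassical monocyte-like cells. Fcgr1 was 0.82 (0.45 to 1.19) and 0.42 (0.16 to 0.68) in classical monocyte-like cells but 0.24 (-0.10 to 0.58) and -0.10 (-0.39 to 0.20) in C1q macrophage-like cells, 0.60 (0.21 to 0.98) and 0.17 (-0.52 to 0.80) in hypoxic macrophage-like cells and 0.66 (-0.36 to 1.62) and -0.23 (-1.15 to 0.61) in nonclassical monocyte-like cells. Fcgr2b was 0.07 (-0.15 to 0.28) and 0.27 (0.08 to 0.47) in classical monocyte-like and 0.02 (-0.16 to 0.20) and -0.10 (-0.28 to 0.08) in C1q macrophage-like cells, and was highest at 0.75 (0.36 to 1.13) in Irg1+/+ nonclassical monocyte-like cells, where 37 cells were set against 87. Cells picked without thinning were more frequent in the library labelled Irg1-/- in each class: 49.9% and 58.1% of classical monocyte-like, 66.6% and 74.5% of C1q macrophage-like, 36.5% and 49.2% of nonclassical monocyte-like and 43.3% and 46.0% of hypoxic macrophage-like cells. Within classical monocyte-like cells the log2 ratio of Fcgr4 between libraries was 0.40 (0.23 to 0.58) among the Cxcl9 and Cxcl10 cells and 0.45 (0.11 to 0.80) among cells with 0.

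**Figure D5:**
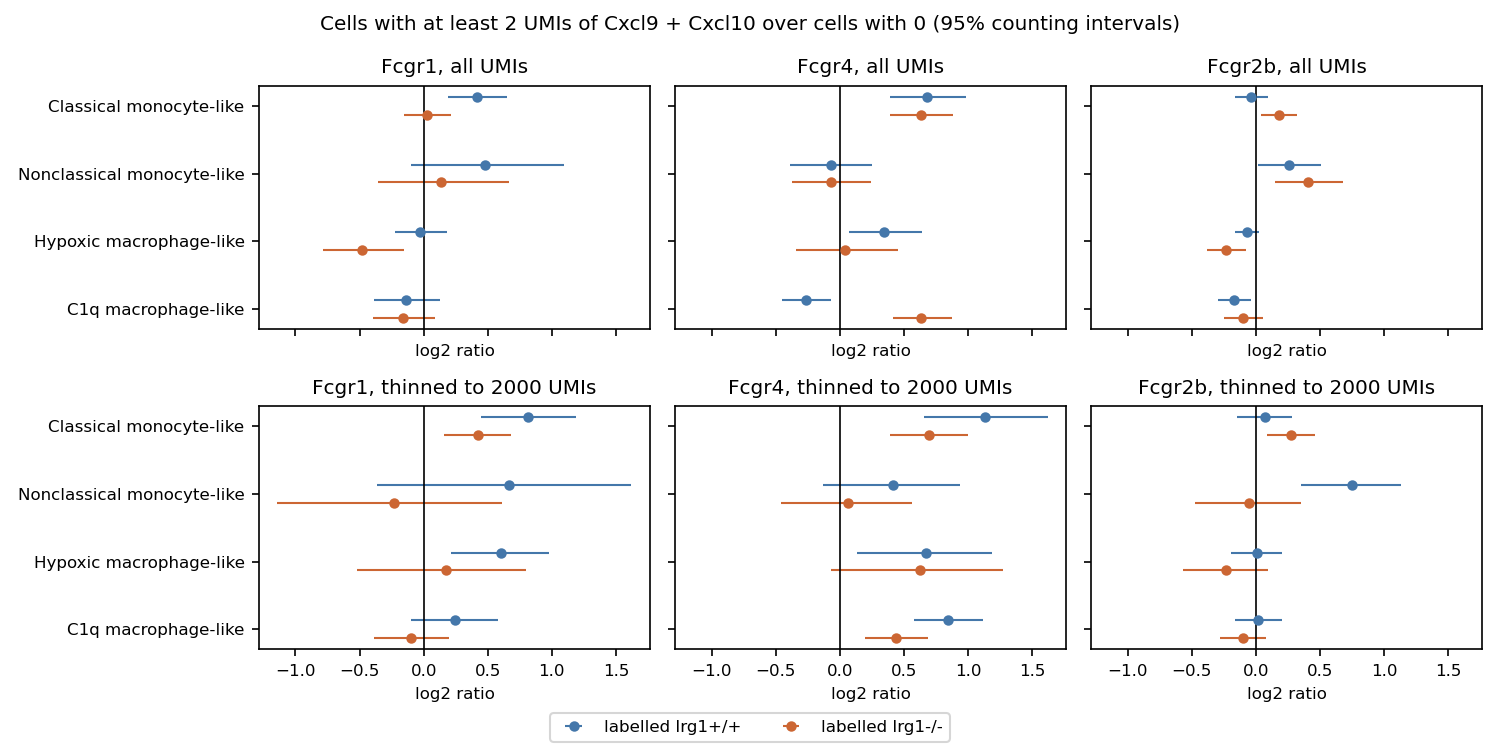
The log2 ratio (x axis) of cells with at least 2 UMIs of Cxcl9 and Cxcl10 over cells with 0, for Fcgr1, Fcgr4 and Fcgr2b in 4 monocyte and macrophage classes, with all UMIs (upper row) and after thinning to 2000 UMIs (lower row). Points are the Irg1+/+ library (blue) and the library labelled Irg1-/- (orange) with 95% counting intervals; after thinning Fcgr4 lies right of 0 in all 8 pairs.

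Activating and inhibitory receptors were mostly found in the same cells. After thinning to 2000 UMIs, 80.9% (77.1 to 84.3) and 76.6% (72.8 to 80.2) of C1q macrophage-like cells had UMIs of Fcgr2b and of an activating chain, and 5.39% and 4.52% had Fcgr2b alone. In hypoxic macrophage-like cells 78.0% and 81.2% had both and 11.2% (8.53 to 14.4) and 8.33% (4.84 to 13.2) Fcgr2b alone. Classical monocyte-like cells had both in 75.1% and 70.4% and Fcgr2b alone in 6.60% and 4.18%. In T cell-like cells both were found in 9.66% and 9.12%. Cells under 2000 UMIs were left out, 104 and 53 of the C1q macrophage-like and 119 and 43 of the hypoxic macrophage-like cells.

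Genes with the most similar pattern were sought over 28 points, the 14 classes in each of the libraries, by Pearson's r of log2(CPM + 1) among 9250 genes. The points share libraries, free RNA and the split between myeloid and lymphoid classes, so these values are descriptions. Fcgr1 was nearest to Clec4a2 (r = 0.948), Ms4a6d and Ctsc, Fcgr2b to Cd68 (0.938), a lysosomal protein of macrophages, Lrp1 and Cln8, and Fcgr3 to Sod2 (0.963), Igsf6 and Mpp1. Fcgr4 was nearest to Clec4a1 (0.935), Slc11a1, a metal transporter of phagosomes, and Clec4a3. Fcer1g was nearest to Itgam (0.906), the Cd11b chain of complement receptor 3, followed by Fcgr3 (0.903) and Rnf130. Fcgrt was nearest to Slamf9 (0.864), Rnf141 and Osgep, and its r with the other members ran from -0.03 to 0.20.

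Few signaling partners of the receptors were past the mark in C1q macrophage-like cells, where 17.6% of all genes were, and counts this small are near that share. Of 11 ITAM pathway genes, all tested, 1 was past a log2 ratio of 0.5 upward and 0 downward: Fgr, a Src family kinase, at 129 and 185 CPM (0.52, 0.39 to 0.64). The median of the ITAM genes was 0.19 and that of the ITIM genes 0.06, against -0.06 for all genes. Values of the related genes here and below are sums over the class. The other ways of counting, such as leaving out the deepest cells, were applied to the 6 members only. Below the mark, Plcg2 was at 0.43 (0.30 to 0.56), Lyn at 0.11 and Syk at 0.14. None of 6 ITIM pathway genes was past it, with Ptpn6 (SHP-1) at 0.37 (0.29 to 0.45) and Inpp5d (SHIP-1) at 0.09 (-0.03 to 0.21). B2m, the partner of Fcgrt, had 5456 and 6929 CPM (0.34), and the adaptor Tyrobp 1425 and 1533 CPM (0.11). Of 8 other receptors that pair with Fcer1g 6 were tested and 1, the NK receptor gene Ncr1, was past the mark at 4.58 and 10.8 CPM. Ncr1 was also higher in T cell-like (4.69 and 8.92 CPM) and hypoxic macrophage-like cells (5.55 and 11.5 CPM) but stood at 393 and 392 CPM in NK cell-like cells, which numbered 391 and 699, and the part of free RNA in this was not tested. The C-type lectins Clec4n and Clec4e had 0 past it. In classical monocyte-like cells Clec4e, the receptor Mincle, stood at 815 and 557 CPM (-0.55, -0.64 to -0.46). There, beside 17.9% of all genes, 1 of 11 ITAM genes was past the mark, Card9 at -0.93, and 1 of 6 ITIM genes, Inppl1 at 0.86. In hypoxic macrophage-like cells 0 of 11 ITAM and 0 of 6 ITIM genes were past the mark, beside 19.1% of all genes.

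Among 13 other Fc and Fc-like receptors 6 were tested in C1q macrophage-like cells, and 0 were past the mark upward and 2 downward, where 6.82% of all genes were past it upward and 10.8% downward. Fcrls, an Fc receptor-like gene of macrophages, had 109 and 63.2 CPM (-0.79, -0.97 to -0.61), and Fcrla 4.72 and 3.23 CPM (-0.53, -1.42 to 0.29). In classical monocyte-like cells Fcrls was at 6.71 and 12.9 CPM (0.92, 0.10 to 1.87).

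The genes of IgG itself, the ligand of these receptors, differed between the libraries. Plasma cell-like cells held 3536 UMIs of Ighg2b, the constant gene of IgG2b, in the Irg1+/+ library, a level of 7413 CPM, and 0 UMIs in the library labelled Irg1-/-, where a count of 0 allows up to 4.4 CPM. Ighg2c, the constant gene of IgG2c, had 1996 and 20 UMIs, and Igha, that of IgA, 4193 and 10687 CPM. UMIs of Ighg2b were found in 18 of the 96 Irg1+/+ plasma cell-like cells, and 1 cell held 71.5% of them; 1 cell also held 98.4% of the Irg1+/+ Igha UMIs, while 52 of 105 plasma cell-like cells of the other library had Igha UMIs. UMIs of Ighg2b were also counted, in the same direction, in classes that do not make antibody. Those classes share the pools with the plasma cell-like cells, so they are not separate observations. The part of free RNA in their counts was not tested. In the Irg1+/+ library 1 plasma cell-like cell held 2527 of all 5321 Ighg2b UMIs. C1q macrophage-like cells had 43.8 CPM of Ighg2b (316 UMIs) and 0.65 CPM (4 UMIs), NK cell-like cells 44.6 and 0.85 CPM, and classical monocyte-like cells 36.5 and 0.84 CPM. B cell-like cells had 161 and 250 CPM of Ighg2b, in the opposite direction. Of 10 immunoglobulin constant and joining genes 7 were tested in C1q macrophage-like cells, 4 past the mark upward and 2 downward beside 6.82% and 10.8% of all genes, among them Igha at 26.2 and 95.3 CPM and Igkc at 206 and 375 CPM. Whether these genes bear on the receptor levels was not tested.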

How the data were processed

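Cd45+ cells of B16-F10 tumors were profiled in 1 BD Rhapsody library per genotype, which the labels give as Irg1+/+ and Irg1-/-. The deposited values are unfiltered UMI counts (1 row a gene, 1 column a cell). The authors made them by trimming with fastp, listing barcodes with UMI-tools and aligning by STAR, with Ensembl release 100 as reference. The submitters' processing notes also name CASAVA 1.8, Seurat and GRCm38. Cells with over 200 genes and under 10% mt- UMIs were kept, and mt- genes were then left out.

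Each class was scored in each cell as the mean z score over its marker genes, and a cell joined its best class if that score reached 0.5 and led the next by 0.25. UMIs were summed per class and library and scaled to CPM, and log2 ratios used 0.5 added UMIs. With 1 library per genotype no test was run between genotypes or classes. Doublets were kept, since no caller was run, and the 5% of cells with most UMIs were left out as an alternative. The 6 members, gene lists, markers and comparisons were chosen with earlier results of these data known. Named genes are the 6 members, genes of the related lists with at least 20 UMIs in the class described, those with the most UMIs before others, and the 3 genes most like each member; Fgr, Ncr1, Fcrls, Fcrla, Card9, Inppl1 and the immunoglobulin genes were singled out after their values had been seen. The log2 ratios and their intervals were tested on simulated data. Gene positions came from GENCODE mouse release M21 (GRCm38) and promoters from RefSeq (GRCm38.p6). Alternatives were wider gate margins, graph clusters made without Fc receptor genes, other mt- filters, other pseudocounts, mean per-cell CPM, thinning to 2000 UMIs and TMM factors. Python 3.11.15, numpy 2.4.6, scipy 1.17.1, pandas 2.3.3, scanpy 1.11.5, matplotlib 3.10.9, R 4.3.3 and edgeR 4.0.16 (TMM factors only) were used.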

Additional observations from a re-analysis of the deposited data

Results flagged for a closer look

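The log2 ratio of the library labelled Irg1-/- over Irg1+/+ lay on opposite sides of 0, with intervals clear of 0, in different classes for 4 members, and these differences between classes were not tested. For Fcgr1 it was 1.79 in B cell-like and -0.68 in plasma cell-like cells, for Fcgr2b 0.48 and -0.55, and for Fcgr3 0.80 and -0.43 in the same classes. With mt- genes under 5% the B cell-like values of the log2 ratio turned to -0.15 for Fcgr3 and -0.02 for Fcgr2b, and that for Fcgr1 was 0.24. For Fcgrt it was 1.05 in plasmacytoid dendritic cell-like and -0.27 in type 1 conventional dendritic cell-like cells. Within C1q macrophage-like cells the log2 ratio of Fcgr4 was 0.56 among cells with Cxcl9 and Cxcl10 UMIs and -0.34 among cells with 0, a difference that was not tested and that moves with median depths of 14379.5 and 11512 UMIs against 1559 and 2802 UMIs.

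Cells left out for mt- genes, which entered no comparison other than the alternative without that filter, also held receptor UMIs above the level of T cell-like cells. Fcgr4 had 258 CPM in the 124 Irg1+/+ cells and 493 CPM in the 102 cells of the library labelled Irg1-/-, and Fcer1g had 2711 and 3522 CPM.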

How the results depend on the processing

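No paired analysis was possible because each genotype has 1 library. Removing cells with shared barcodes, dropping the mt- filter and pseudocounts of 0 or 1 kept all 84 log2 ratios within their intervals. The log2 ratio of Fcgr3 in B cell-like cells turned from 0.80 to -0.15 with mt- genes under 5%. That of Fcgr4 in C1q macrophage-like cells was 0.13 without the top 5% of UMIs, 0.18 thinned, 0.21 as mean per-cell CPM, 0.56 with TMM factors and 0.59 in graph clusters. In graph clusters it was 0.29 in classical monocyte-like and 0.39 in hypoxic macrophage-like cells, and 0.33 in the former when thinned. The log2 activating to inhibitory ratio of C1q macrophage-like cells was 0.10 without the top 5%, 0.18 as mean per-cell CPM and 0.069 thinned. Fcgr4 in Cxcl9 and Cxcl10 cells of the classical monocyte-like class (Irg1+/+) was 1.13 when thinned before the gate, an alternative added after seeing the data, as were the removal of shared barcodes and of the T cell-like level. Other causes of these moves were not tested. With the T cell-like level taken off, Fcgr4 was higher in the library labelled Irg1-/- in 10 of 12 classes. Genes past the mark in C1q macrophage-like cells numbered 1947 with at least 20 UMIs, 6167 with no minimum and 949 with at least 100 UMIs, and the counts of all 14 classes moved by over 1.5 times under both. Shares of cells with both receptor kinds depend on depth: in C1q macrophage-like cells they were 52.1% and 53.3% at 1000 UMIs and 93.4% and 93.3% at 4000 UMIs.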
